A study of Mus musculus with 24 samples.

Results

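The genes described here are the mouse potassium channel genes outside the K2P background channel family, read in adrenal glands of Kcnk3 null and WT mice. They are all genes whose name on the array begins with Kcn but not with Kcnk. The rule uses names and detection only: a gene counted as measured when 3 or more of the 24 arrays read one of its probes well above background, and the brightest such probe stood for it. Of 81 such genes on the array 62 were measured, among 26372 features tested in all. They include pore-forming and silent subunits, accessory subunits and 1 noncoding transcript, Kcnq1ot1.

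Total RNA was hybridised in one colour, with 3 arrays for each of the 8 groups of C57BL/6 mice. The labels name females that were Kcnk3 null with testosterone, WT with testosterone, Kcnk3 null sham and WT sham, and males that were Kcnk3 null castrated, WT castrated, Kcnk3 null sham and WT sham. Neither the ages, the way the null allele was made nor the dose of testosterone is given in the sources used here, and nothing says that the arrays of a group came from separate animals, so p-values measure the spread between these arrays. Whole glands were read, so fewer cells of a type and less RNA per cell cannot be told apart in any result below.

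Potassium channels set the resting voltage of adrenal cells. In aldosterone-making cells of the zona glomerulosa the membrane is held negative by background potassium conductance, to which Kcnk3 (TASK1) contributes, and closure of these channels depolarises the cell, opens calcium channels and drives steroid output. Voltage-gated (Kv), inward-rectifier (Kir) and calcium-activated (BK and SK) channels shape the voltage around that background conductance, also in the catecholamine-making chromaffin cells of the medulla. In mice the innermost cortex can hold the X-zone, a layer that androgen removes.

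Levels are log2 signals relative to the 75th percentile of the same array, and since probes differ in brightness they are compared between groups but never between genes. Each array read 57.0% to 64.7% of its spots well above background. Kcnk3 itself read 5.63% to 69.0% of the WT sham level of the same sex in the null arrays, against 66.5% to 118% in the WT arrays. The sources used here do not say which part of Kcnk3 is deleted, so this probe does not test the labels. The summed signals of the chromaffin and fasciculata marker lists were at least 268.6 and 784.6 times the 75th percentile on every array, and that of the glomerulosa list at least 58.6 times. Sex-linked transcripts went against the label on 9 arrays, at a threshold of 10% of the level in the labelled opposite sex: female WT sham 2 and 3, female WT testosterone 1, 2 and 3, male null castrated 1 and 2, and male null sham 1 and 2. On the 5 female arrays of this kind Y-linked signal was 19.2% to 45.5% of the WT sham male level, beside Xist at 39.0% to 167% of the null sham female level. On the 4 male arrays Xist was 17.4% to 58.0%, beside Y-linked signal at 37.3% to 79.8%. Below that threshold but well above background, Xist was 4.15% on male null castrated 3 and 6.08% on male null sham 3, and Y-linked signal was 1.20% on female WT sham 1, so no array of the female WT testosterone, female WT sham, male null castrated or male null sham groups was free of it. Whether RNA was mixed or samples were exchanged was not tested, and it bears on what every mean by sex, hormone or genotype below stands for. The arrays past 10% are called the 9 sex-discordant arrays, and the groups below are groups by label. Sex-linked genes were themselves called between null and WT. Ddx3y and Eif2s3y, 2 of 3, were lower in null arrays in sham females and in testosterone females. Xist, 1 of 3, was higher in null arrays in castrated males. Over all 4 settings 3 of 3 were called, and in sham males none. Liver transcripts were high on female null testosterone 1 and male WT sham 3. Skeletal muscle transcripts were high on female WT sham 2 and male WT castrated 2.

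Promoter sequences from RefSeq (GRCm38.p6, 250 bases before to 50 after the start, 5′ to 3′ on the strand of the gene) are shown for the 2 genes that fell together with castration, Kcnf1 and Kcnj4, and for Kcnmb4, which differed by genotype and by sex. Capitals mark matches to AAGGTCA, a half-site of the steroidogenic factor Nr5a1, or to AGAACA, a half-site of the androgen and glucocorticoid receptors, searched on both strands (TGACCTT and TGTTCT).
Kcnf1 (12:17176839-17177138, minus strand): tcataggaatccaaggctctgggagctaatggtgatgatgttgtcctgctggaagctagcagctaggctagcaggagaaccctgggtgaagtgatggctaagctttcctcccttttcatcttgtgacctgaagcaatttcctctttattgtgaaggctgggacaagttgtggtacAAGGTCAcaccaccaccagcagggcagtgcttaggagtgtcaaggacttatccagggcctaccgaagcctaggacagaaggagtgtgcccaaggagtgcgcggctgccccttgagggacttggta
Kcnj4 (15:79505192-79505491, minus strand): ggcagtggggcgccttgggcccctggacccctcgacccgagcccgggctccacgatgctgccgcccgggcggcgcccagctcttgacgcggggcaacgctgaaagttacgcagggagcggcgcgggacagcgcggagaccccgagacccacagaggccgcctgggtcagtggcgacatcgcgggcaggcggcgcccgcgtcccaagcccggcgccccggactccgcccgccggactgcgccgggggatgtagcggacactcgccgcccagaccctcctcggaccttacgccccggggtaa
Kcnmb4 (10:116473474-116473773, minus strand): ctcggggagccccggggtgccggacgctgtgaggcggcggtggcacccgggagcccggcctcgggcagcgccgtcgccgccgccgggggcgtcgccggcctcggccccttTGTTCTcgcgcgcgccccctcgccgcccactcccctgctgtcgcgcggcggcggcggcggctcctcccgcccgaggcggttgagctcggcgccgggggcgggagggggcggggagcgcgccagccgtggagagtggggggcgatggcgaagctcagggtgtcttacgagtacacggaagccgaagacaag
The Kcnf1 window held AAGGTCA 75 bases before the start, and the Kcnmb4 window held TGTTCT 140 bases before it. The Kcnj4 window held neither. Of 45 measured channel genes with a promoter entry, 1 held the first motif (2.22%), against 4.72% of all 32851 promoters, and 5 held the second (11.1%), against 18.97% of all promoters. These shares describe letters in a window and say nothing of binding.

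The 62 measured genes span the main families. They comprise 16 voltage-gated pore genes of the Shaker, Shab, Shaw and Shal types, 5 silent Kv genes, 5 Kv7 genes, 5 EAG, ERG or ELK genes and 11 inward rectifiers. The calcium-, sodium- and pH-gated group comprises the pore genes Kcnma1, Kcnu1, Kcnt1 and Kcnt2, 3 SK or IK genes and 3 BK β genes. The accessory genes are 3 KCNE, 2 Kv β and 3 Kv4-interacting genes, with the regulator Kcnrg and the noncoding Kcnq1ot1. The 19 genes not measured were Kcna10, Kcnab2, Kcne1, Kcne2, Kcng1, Kcnh1, Kcnh5, Kcnh7, Kcnip2, Kcnj1, Kcnj3, Kcnj9, Kcnj16, Kcnmb3, Kcnn1, Kcns1, Kcns2, Kcnv1 and Kcnv2. At the edge of the detection rule, Kcna3, Kcnj14 and Kcnh6 were well above background on 3 arrays, and Kcnj1, Kcnh1 and Kcnj16 on 2. Of the measured genes 43 were read on all 24 arrays and 19 on 3 to 21, and 15 had at least 1 group with no array well above background.

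Among the 43 genes read on all 24 arrays, the highest and the lowest of the 8 group means lay 0.32 to 3.68 apart, with a median of 0.86, and the gap passed 1 for 15 genes and 2 for 3 genes. The median standard deviation within a group, 0.34 over the same genes, sets the scale for these gaps. A difference below is on the log2 scale ± the standard error of a limma fit of all 8 groups, with 3 arrays on each side except where given otherwise. A call is an adjusted p below 0.05 (Benjamini-Hochberg, over all 26372 features). At that rule 8 of the 62 genes were called in at least 1 of 12 comparisons, 21 calls in all, and 54 genes in none. The share of all features called in at least 1 comparison was not computed, so the 8 genes have no array-wide rate beside them. Shares for each comparison are given below. Of the 21 calls 4 are of Kcnf1, which had to differ because of the detection rule. Every one of the 21 calls had the same sign on each slide that held both groups.

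**Figure D1:**
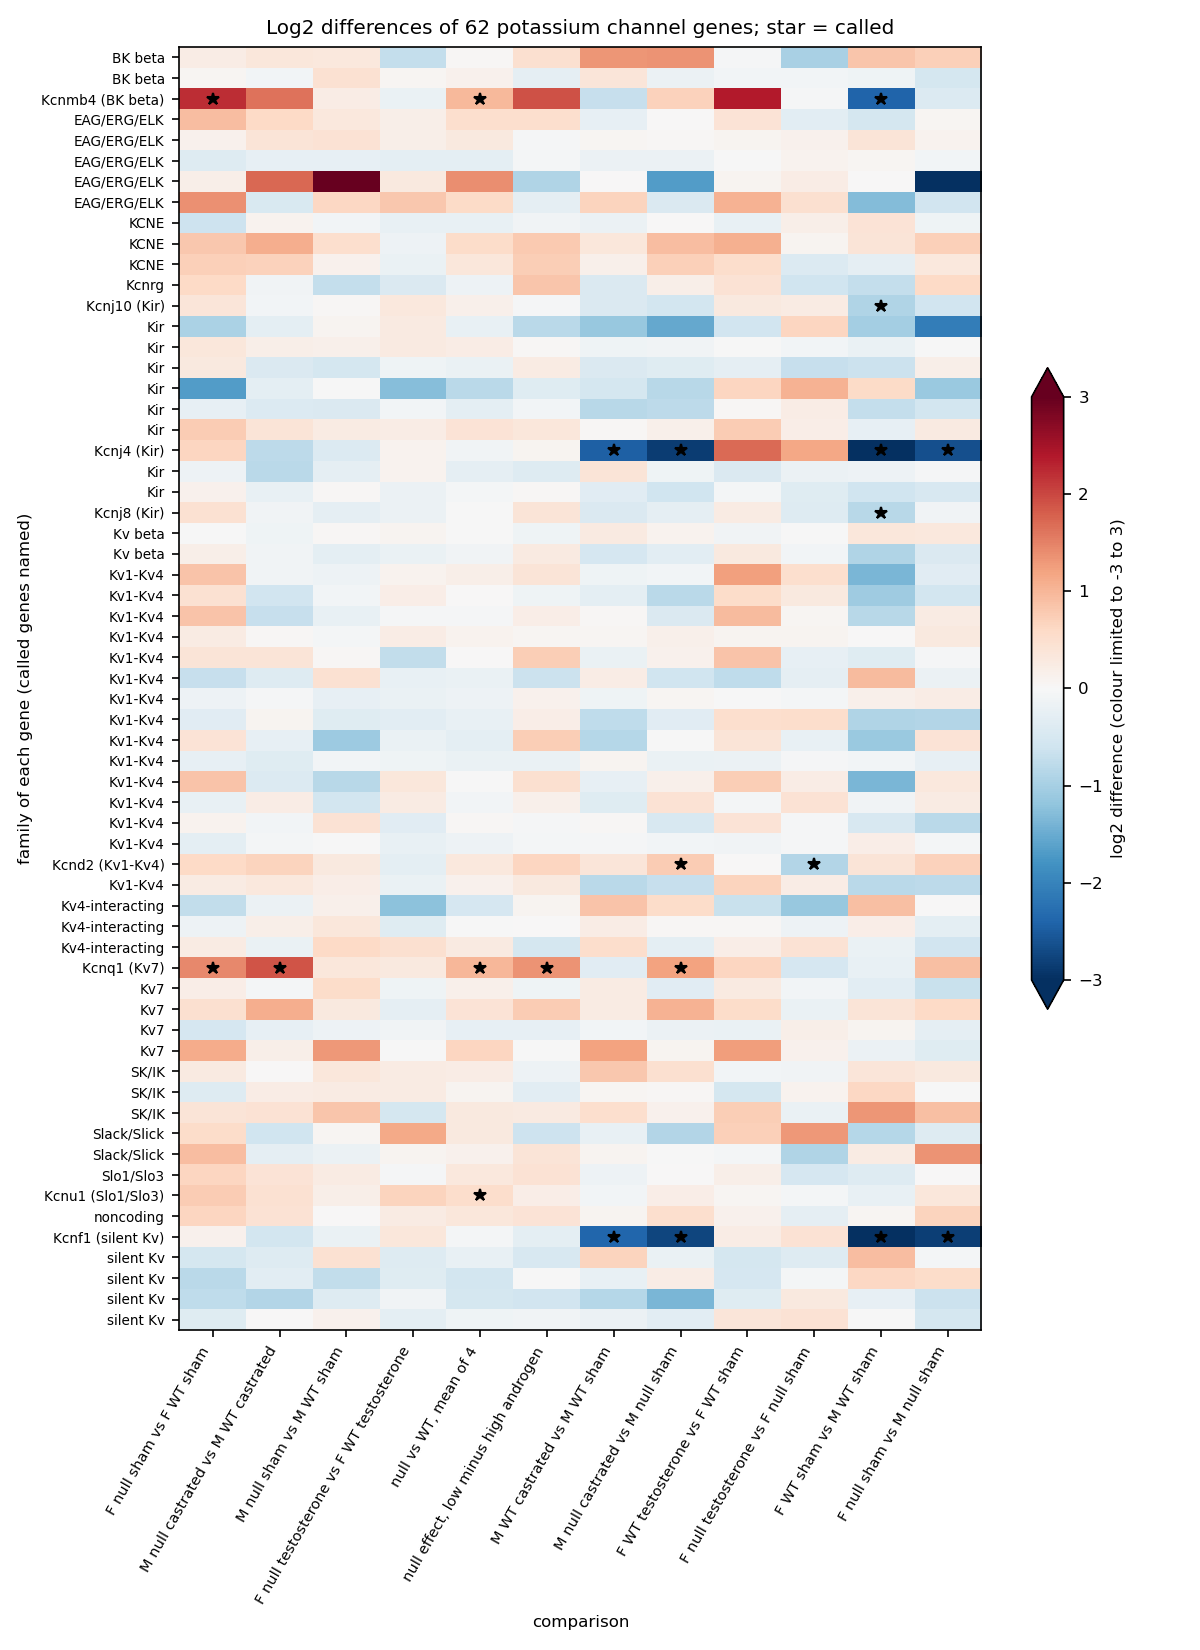
Log2 differences of the 62 potassium channel genes (rows, labelled by family, with the called genes named) in the 12 comparisons (columns), each named as first group against second. Colour gives the difference and a star marks a call; the 21 stars fall on 8 genes.

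Loss of Kcnk3 went with higher Kcnq1, the pore subunit Kv7.1, which with a KCNE accessory subunit makes slow or constitutive potassium currents. Its probe lies at chromosome 7, positions 150612887 to 150612946 (mm9, plus strand). In castrated males Kcnq1 read 1.70, 2.35 and 1.89 in null arrays and 0.05, 0.12 and 0.12 in WT arrays. In sham females it read 1.72, 2.14 and 1.15 in null arrays and 0.49, 0.23 and -0.04 in WT arrays. Null arrays were higher than WT arrays without overlap in both settings. The difference was 1.88 ± 0.28 in castrated males (3.69-fold, adjusted p = 0.00125) and 1.44 ± 0.28 in sham females (2.72-fold, adjusted p = 0.0180).

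In sham males and testosterone females the genotypes lay closer. Kcnq1 read 0.89, 0.70 and 0.74 in null sham males, against 0.53, 0.46 and 0.34 in WT sham males, without overlap, and the difference of 0.33 ± 0.28 was not called (adjusted p = 0.999). It read 0.49, 1.34 and 1.64 in null testosterone females, against 0.85, 0.51 and 1.26 in WT testosterone females, with overlap and a difference of 0.29 ± 0.28 (adjusted p = 0.911). The mean null effect in sham females and castrated males minus that in sham males and testosterone females was 1.35 ± 0.28 (adjusted p = 0.0285), the one test here of whether the null effect differed with androgen. Kcnq1 was also higher in castrated than sham null males, by 1.20 ± 0.28 (adjusted p = 0.0345), with castrated and sham arrays not overlapping. Over all 4 settings the null arrays were higher by 0.99 ± 0.14 (adjusted p = 0.000714, 12 arrays against 12).

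The calls in castrated males and over all settings held without any single array, with adjusted p at most 0.0126 and 0.00219. The sham female call ended without null 1, null 2, WT 2 or WT 3 (adjusted p = 0.0515 to 0.0854), and the castration call in null males without any 1 of its 6 arrays (0.0532 to 0.157). Slide 4 held only F WT sham 3 and F WT testosterone 3, both with an RNA integrity number of 3, the lowest here. F null sham 3 and F null testosterone 3 were on slide 3, with numbers of 7 and 5. Slide and RNA integrity are thus partly confounded with genotype in females. Without slide 4 the sham female difference was 1.31 and the androgen dependence 1.19 (adjusted p = 0.0693 and 0.0886). The androgen dependence held only without M null castrated 1 or 3, M WT sham 3, F WT sham 1, F null sham 3, F WT testosterone 2 or any F null testosterone array, and the adjusted p was 0.0503 to 0.0645 without each of the other 15. Without the 9 sex-discordant arrays, which leaves lone arrays assumed to vary like the other groups, the differences were 1.80 in castrated males, 1.18 in sham females and 1.15 for castration in null males, none called (adjusted p = 0.279, 0.338 and 0.896). Some zona glomerulosa markers were called in the same settings. Of 6 listed, 2 were lower and 1 higher in null castrated males, and 1 was lower in null sham females. In castrated males the angiotensin receptor Agtr1b and the calcium sensor Vsnl1 fell by 2.59 and 3.24 and aldosterone synthase Cyp11b2 rose by 2.97. In sham females Agtr1b fell by 1.70. The summed signal of the 6 listed markers ranged from 64.5 to 77.1 in castrated null and 81.7 to 101 in castrated WT males, and from 66.9 to 76.1 in sham null and 76.9 to 96.9 in sham WT females, in units of the 75th percentile. The part of these cells in the Kcnq1 result was not tested.

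Of the KCNE subunits that can join Kv7.1, Kcne1 and Kcne2 were not measured. Kcne4, an inhibitory partner, read -1.12, -1.43 and -1.53 in null castrated males and -1.99, -2.15 and -1.98 in WT castrated males, a difference of 0.68 ± 0.21 without overlap (adjusted p = 0.199). Kcne3, a partner that keeps Kv7.1 open, gave 1.09 ± 0.39 in the same comparison (adjusted p = 0.366). Neither was called in any comparison, nor was the other measured KCNE gene, Kcne1l (smallest adjusted p = 0.730). Kcnq1ot1, the imprinted noncoding transcript that runs antisense through Kcnq1, read 1.93, 2.08 and 2.04 in null sham females and 1.33, 1.82 and 0.98 in WT sham females, a difference of 0.64 ± 0.22 (adjusted p = 0.243).

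Kcnmb4, the β4 accessory subunit that slows the gating of BK channels, was low in WT sham females alone among the 8 group means. Its probe lies at chromosome 10, positions 115854977 to 115855036 (mm9, minus strand). Kcnmb4 read 1.27, 0.80 and -0.38 in null sham females and -2.46, -1.20 and -1.32 in WT sham females. It read 0.92, 1.12 and 0.19 in WT sham males. The WT sham females lay below both other groups without overlap. The difference was 2.22 ± 0.47 for null against WT in sham females (4.67-fold, adjusted p = 0.0332) and -2.40 ± 0.47 for females against males among WT sham arrays (adjusted p = 0.00767).

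With testosterone, WT females read 1.18, 0.34 and 0.63, above all 3 WT sham females, and the difference of 2.38 ± 0.47 fell just short of a call (adjusted p = 0.0509). It was called under 6 other settings, the slide and replicate blocks among them. All 3 WT testosterone arrays and WT sham 2 and 3 are sex-discordant, so this difference could not be computed without the sex-discordant arrays. In castrated males Kcnmb4 read 2.03, 1.38 and 1.58 in null arrays and -0.05, 0.24 and -0.05 in WT arrays, without overlap (1.62 ± 0.47, adjusted p = 0.156). Over all 4 settings null arrays ranged from -0.42 to 2.03 with a median of 1.09, and WT arrays from -2.46 to 1.18 with a median of 0.22. The null arrays were higher by 0.97 ± 0.23 (adjusted p = 0.0299).

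The sham female call ended without null 1, null 2, WT 1 or WT 3 (adjusted p = 0.0621 to 0.181), and the sex difference without F WT sham 1 (adjusted p = 0.0563). The call over all settings ended without M null castrated 1, M WT castrated 1 or 3, M null sham 1 or 3, M WT sham 3, F null sham 1 or F WT testosterone 2 (0.0518 to 0.0581), and without the 2 liver arrays (0.80, adjusted p = 0.0696). Without slide 4 the sham female difference was 2.39 and that over all settings 1.00 (adjusted p = 0.0696 and 0.0542). Leaving out the 9 sex-discordant arrays, the sham female difference was 3.03 (adjusted p = 0.140) and the sex difference -3.21 (adjusted p = 0.0468). A second Kcnmb4 probe moved the same way in these 3 comparisons and was not called (1.42, 0.61 and -1.71, adjusted p = 0.281, 0.243 and 0.0920). In null against WT sham females 1 of 6 glomerulosa markers (Agtr1b) and 1 of 7 fasciculata markers (Mrap) were called, lower by 1.70 and 0.99. The summed fasciculata signal was 873.3 to 1071 in null and 1041 to 1303 in WT arrays. In WT sham females against males both listed X-zone genes, Akr1c18 and Pik3c2g, were called higher, by 11.59 and 8.34. Of 7 fasciculata markers Star alone was called, higher by 0.84. The part of these cells in the Kcnmb4 results was not tested.

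The BK pore gene Kcnma1 read 2.51, 2.42 and 2.59 in null sham females and 1.69, 2.14 and 1.76 in WT sham females, without overlap and without a call (0.64 ± 0.19, adjusted p = 0.170). Lrrc55, a BK γ subunit that shifts activation to more negative voltage, went the other way from Kcnmb4. It read -1.98, -1.94 and -2.0 in null castrated males and -0.40, 0.01 and 0.11 in WT castrated males, a difference of -1.88 ± 0.30 (adjusted p = 0.00273). In sham females it read -1.55, -1.23 and -1.52 in null arrays and -0.33, -0.02 and 0.08 in WT arrays (-1.35 ± 0.30, adjusted p = 0.0463). The null groups lay below WT without overlap in both. The null effect again differed with androgen (-1.93 ± 0.30, adjusted p = 0.00341), and Lrrc55 was lower in null castrated than null sham males by -1.99 ± 0.30 (adjusted p = 0.00143) and in null sham females than null sham males by -1.45 ± 0.30 (adjusted p = 0.0204). The part of the higher Kcnk3 signal of null sham males was not tested here either. The castrated male and androgen results held without any single array, while the sham female call ended without any 1 of its 6 arrays (0.0673 to 0.174) and the null sex difference without M null sham 1, 2 or 3 or F null sham 1 or 3 (0.0597 to 0.0980). Leaving out the 9 sex-discordant arrays gave -1.91 in castrated males and -1.10 in sham females (adjusted p = 0.107 and 0.267), -2.07 for castration and -1.50 for sex in null arrays (0.208 and 0.231). Of the 6 glomerulosa markers, Agtr1b, Vsnl1 and Cyp11b2 were called in castrated males and Agtr1b alone in sham females, as given above. The part of these cells in the Lrrc55 results was not tested.

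Kcnu1, the pH-gated Slo3 channel known from sperm, was slightly higher in null arrays over all settings. It ranged from -2.89 to -1.78 with a median of -2.55 in the 12 null arrays, and from -3.57 to -2.62 with a median of -3.05 in the 12 WT arrays. The ranges overlapped, and the difference was 0.52 ± 0.12 (adjusted p = 0.0299). The call ended with slide as a block (0.43, adjusted p = 0.0533), without slide 4 (0.47, adjusted p = 0.0647) and without M null castrated 1, M WT castrated 1 or 2, M null sham 1, M WT sham 1 or 2, F null sham 1 or 3 or F WT sham 3 (0.0504 to 0.0618). Of 15 listed partners of these channels 11 were measured, and besides Lrrc55 only Amigo1, a Kv channel auxiliary protein, was called. Amigo1 was higher over all settings by 0.27 ± 0.05 (adjusted p = 0.00700), from -0.01 to 0.46 in null arrays and from -0.15 to 0.08 in WT arrays. That call held without any single array.

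Markers of several cell types were called in the same comparison over all 4 settings, which also gave the Kcnq1, Kcnmb4, Kcnu1 and Amigo1 calls. Lower in null arrays were 2 of 6 glomerulosa markers (Agtr1b and Vsnl1), 1 of 7 fasciculata markers (Mrap), 2 of 6 endothelial markers (Emcn and Tek) and 1 of 5 adipocyte markers (Retn), and 1 of 4 glial markers (S100b) was higher. The summed glomerulosa signal was 58.6 to 85.3 in null arrays and 60.4 to 101 in WT arrays, and the fasciculata signal 784.6 to 1377 in null and 869.5 to 1303 in WT arrays. The endothelial signal was 18.97 to 29.4 in null and 21.6 to 35.0 in WT arrays. The glial signal was 3.66 to 10.4 in null and 2.87 to 7.01 in WT arrays, and the adipocyte signal 45.1 to 207 in null and 173 to 325 in WT arrays. Their part in these calls was not tested.

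Null against WT called 2 of the 62 channel genes higher and none lower in sham females, where 0.44% of all features were called higher and 0.224% lower (0.664% either way). In castrated males it called 1 higher, beside 0.482% of all features higher and 0.292% lower (0.774% either way). Over all 4 settings it called 3 higher, beside 1.49% of all features higher and 1.36% lower (2.85% either way). The count in either direction was 7 with the replicate number as a block, a fit whose share of all features is not given here. The androgen dependence called 1 higher, beside 0.337% higher and 0.148% lower (0.485% either way). By limma none was called in sham males, where 0.0303% of all features were called, all higher and 0% lower, and 2 channel genes had an unadjusted p under 0.05. None was called in testosterone females, where 0.00379% of all features were higher and 0.0379% lower (0.0417% either way) and 5 channel genes had an unadjusted p under 0.05. The share of all features under that unadjusted limit was not computed, so the counts of 2 and 5 have no array-wide rate beside them. The median difference of the 62 genes was 0.24 in sham females and -0.08 in castrated males, beside -0.02 and -0.00 for all features. None of the genes called by genotype lies on chromosome 5, which carries Kcnk3.

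**Figure D2:**
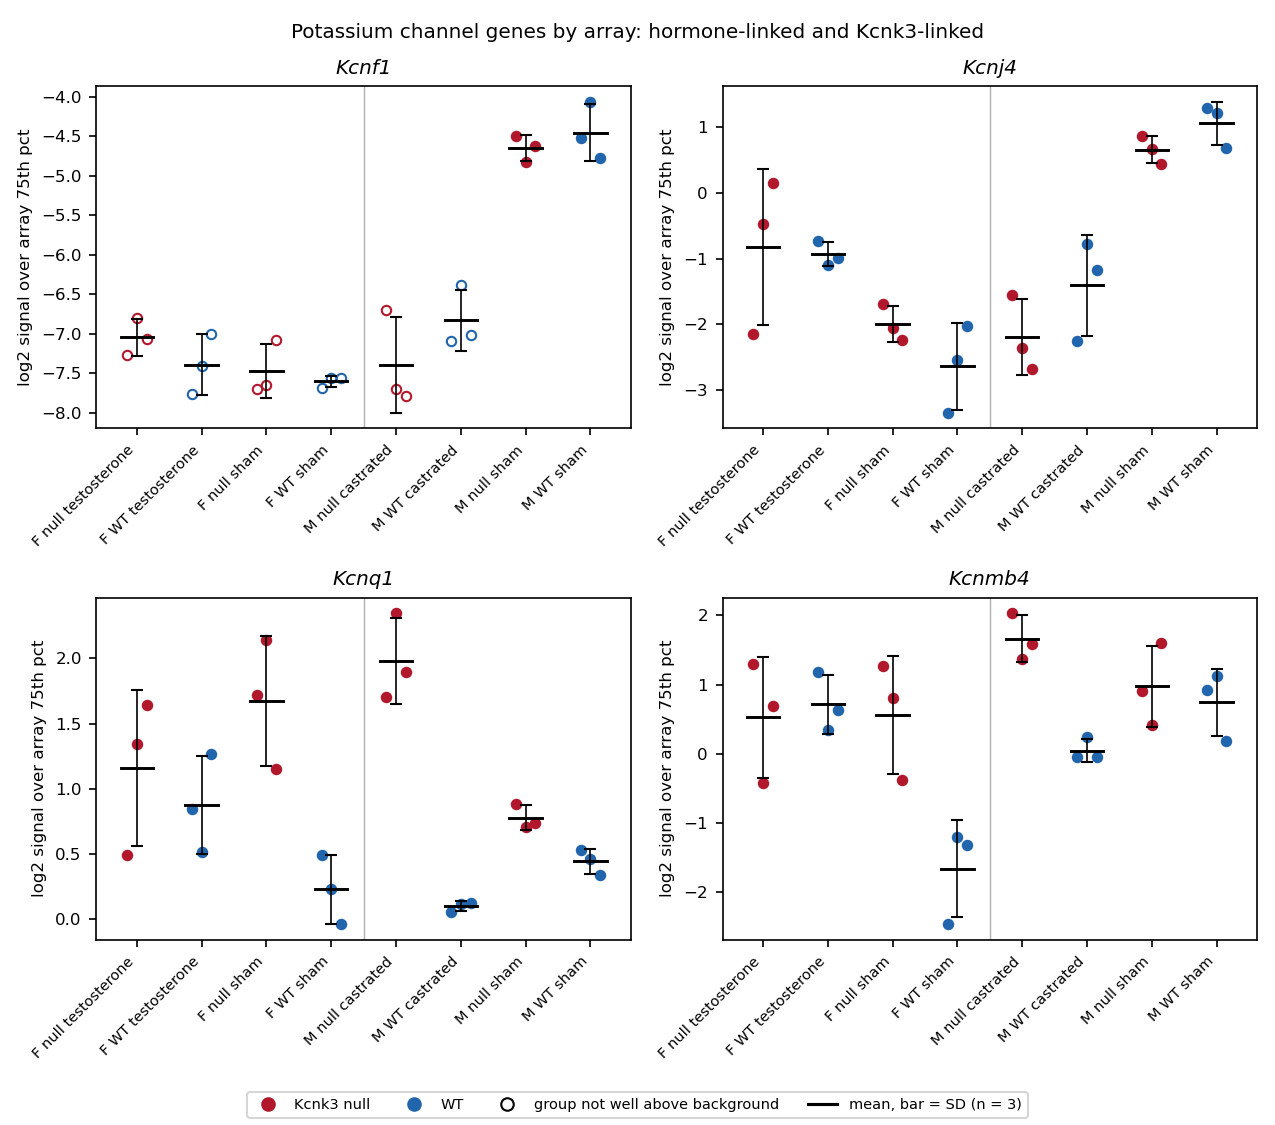
Level of 4 channel genes on each array (y axis, log2 signal relative to the 75th percentile of the array) in the 8 groups by label; bars are mean ± SD of 3 arrays and open points mark groups not well above background. Kcnf1 and Kcnj4 stand high in the sham male groups, Kcnq1 in the null castrated males and null sham females, and Kcnmb4 is lowest in WT sham females.

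Kcnj4 fell with castration in both genotypes. This gene makes Kir2.3, a strong inward rectifier that holds cells near the potassium equilibrium voltage. Its probe is listed on chromosome 15 at positions 79314133 to 79314157 (mm9, minus strand), a span shorter than the probe. Kcnj4 read -1.55, -2.36 and -2.67 in null castrated males and 0.85, 0.66 and 0.44 in null sham males. It read -2.26, -0.78 and -1.18 in WT castrated males and 1.28, 1.20 and 0.67 in WT sham males. Every castrated array lay below every sham array. The fall was -2.84 ± 0.48 in null males (adjusted p = 0.00364) and -2.45 ± 0.48 in WT males (adjusted p = 0.0159).

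Kcnj4 was also lower in sham females than in sham males of either genotype. Null sham females read -1.69, -2.05 and -2.24 and were lower than null sham males by -2.64 ± 0.48 (adjusted p = 0.00905). WT sham females read -3.34, -2.54 and -2.02 and were lower than WT sham males by -3.68 ± 0.48 (adjusted p = 0.000274). With testosterone, WT females read -0.73, -1.09 and -0.99, above all 3 WT sham females, a difference of 1.70 ± 0.48 that was not called (adjusted p = 0.241). Null females read -2.15, -0.48 and 0.14 with testosterone, a difference of 1.17 ± 0.48 (adjusted p = 0.624), and the lowest of these 3 is an array with liver transcripts. Both testosterone groups stayed below every sham male array. Genotype itself made no called difference in Kcnj4.

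The WT castration call ended without M WT castrated 1 (-2.03, adjusted p = 0.133) or without M WT sham 1 or 2 (0.0924 and 0.0846), and the null sex call without M null sham 1 (-2.54, adjusted p = 0.0554). Without the 9 sex-discordant arrays the sex difference in WT arrays was -4.39 (adjusted p = 0.0219). The same omission gave -3.11 for castration and -2.43 for sex in null arrays, neither called (adjusted p = 0.535 and 0.485).

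Kcnf1, the silent subunit Kv5.1 that alters other Kv channels, was detected in sham males alone. Its probe lies at chromosome 12, positions 17179527 to 17179586 (mm9, minus strand). Kcnf1 passed the detection rule only through the 6 sham male arrays, so it had to differ and its tests are no separate support. It read -4.49, -4.82 and -4.62 in null sham males and -4.53, -4.06 and -4.77 in WT sham males, and between -7.79 and -6.39 on the other 18 arrays, none well above background. A fold change is therefore a bound, taken against the higher of the array's lowest well-measured signal and the probe's own. Kcnf1 was at least 1.83-fold lower in castrated than sham null males (adjusted p = 3.73e-05) and at least 2.07-fold lower in castrated than sham WT males (adjusted p = 0.000269). It was at least 1.64-fold lower in females than males among null sham arrays (adjusted p = 5.31e-05) and at least 1.93-fold lower among WT sham arrays (adjusted p = 9.85e-06). Testosterone females also read below background. The fitted size depends on the background correction: with normexp it was -0.45 in null and -0.47 in WT males for castration, neither called (adjusted p = 0.0512 and 0.0541), and with the deposited values -0.66 and -0.63 (0.0456 and 0.0801). Leaving out the 9 sex-discordant arrays ended the castration call in null males (adjusted p = 0.0577).

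The X-zone markers Akr1c18 and Pik3c2g were both called higher in castrated than sham WT males and in WT sham females than WT sham males. Neither was called for castration or for sex among null arrays. Their summed signal was 161 to 248 in null castrated and 0.08 to 129 in null sham males, 228 to 331 in WT castrated and 0.07 to 0.11 in WT sham males. It was 7.26 to 104 in null sham and 134 to 372 in WT sham females. On null sham male arrays 1, 2 and 3 it was 91.6, 129 and 0.08, and arrays 1 and 2 are sex-discordant. The part of the X-zone in these results was not tested.

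Castration called 2 of the 62 genes higher and 2 lower in null males, beside 0.569% of all features higher and 0.709% lower (1.28% either way). In WT males it called 2 lower, beside 0.576% higher and 0.129% lower (0.705% either way). The 2 lower genes were Kcnj4 and Kcnf1 in both genotypes, and the Kcnf1 call was fixed by the detection rule. Kcnj4 and Kcnf1 lie at the far end of both axes in the plot of the castration responses of null and WT males, where Kcnf1 had to fall because of the detection rule. For null against WT in castrated males and in sham females, which share no arrays, Pearson r was 0.44 and Spearman rho 0.31 across the 62 genes, beside a Pearson r of 0.39 across all features, and 36 (58.1%) had the same sign, against 59.3% of all features. These are descriptions across genes, which are not independent replicates.

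**Figure D3:**
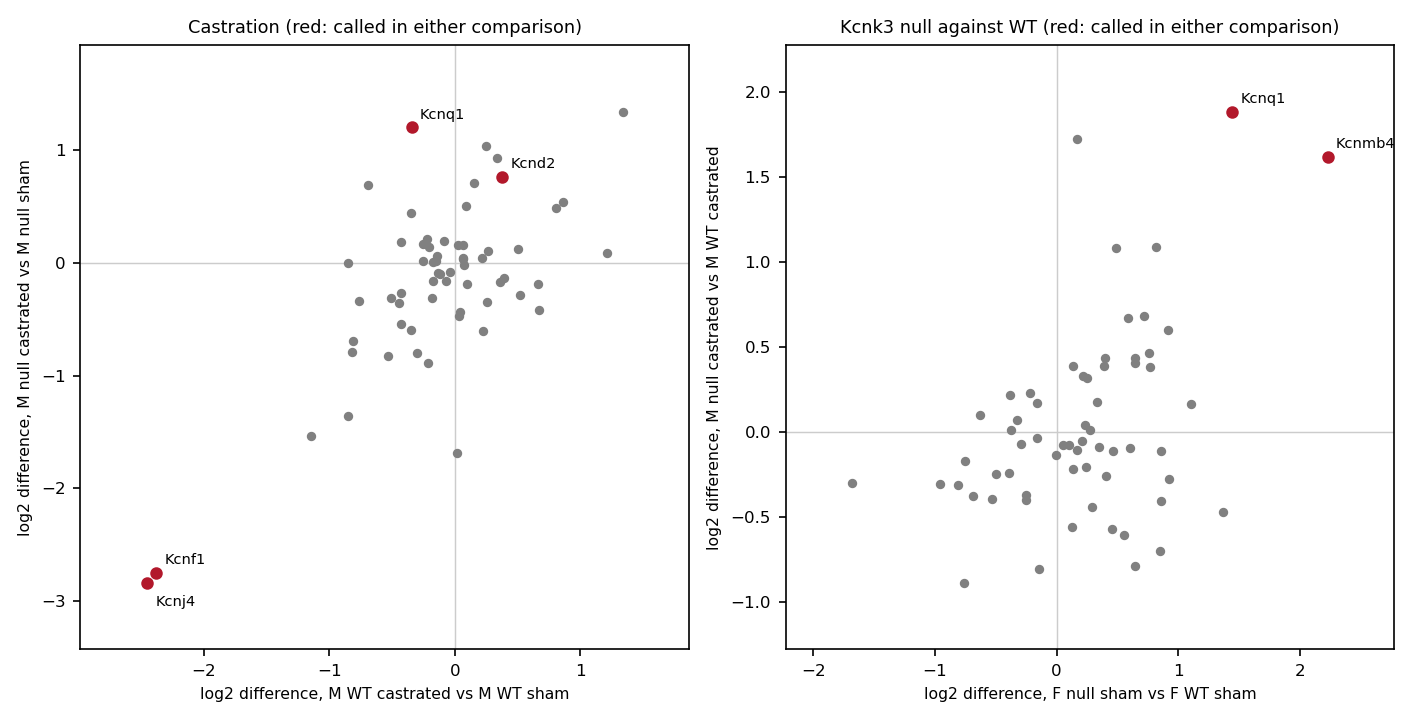
Left, log2 difference with castration in null males (y axis) against WT males (x axis); right, log2 difference of null against WT in castrated males (y axis) against sham females (x axis). Each point is 1 of the 62 genes, and red points are called on either axis; Kcnj4 and Kcnf1 lie low on both axes at left, and Kcnq1 and Kcnmb4 high on both axes at right.

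Kcnd2, the A-type channel Kv4.2 that delays firing between spikes, changed with hormone in null mice. Its probe lies at chromosome 6, positions 21679569 to 21679628 (mm9, plus strand). Kcnd2 read 0.34, 0.02 and 0.16 in null castrated males and -0.45, -0.64 and -0.68 in null sham males, a rise of 0.76 ± 0.18 (adjusted p = 0.0346). It read -0.92, -0.55 and -0.87 in null testosterone females and 0.28, 0.14 and -0.13 in null sham females, a fall of -0.88 ± 0.18 (adjusted p = 0.0377). The groups did not overlap in either comparison. In WT mice castration gave 0.37 ± 0.18 (adjusted p = 0.724) and testosterone 0.01 ± 0.18 (adjusted p = 1.00); whether these differ from the null values was not tested. Kcnd2 was the 1 channel gene called for testosterone in null females, where 0.0341% of all features were called higher and 0.239% lower (0.273% either way). In WT females limma called none, beside 0.0341% of all features higher and 0.106% lower (0.14% either way), and 9 channel genes had an unadjusted p under 0.05. The share of all features under that unadjusted limit was not computed, so the count of 9 has no array-wide rate beside it.

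The castration call in Kcnd2 ended without any 1 of its 6 arrays (adjusted p = 0.0555 to 0.159), and the testosterone call without F null testosterone 1 or 3 or F null sham 1 or 2 (0.113 to 0.239). Without the 2 liver arrays, of which testosterone 1 is one, that difference was -0.81 (adjusted p = 0.129). Without the 9 sex-discordant arrays the castration difference was 0.84 (adjusted p = 0.585). With castration in null males 2 of 6 glomerulosa markers, Agtr1b and Vsnl1, were called lower, by 2.48 and 3.52, and 1, Cyp11b2, higher by 2.16. Of 7 fasciculata markers Abcb1b alone was called, lower. Akr1c18 of the X-zone fell with testosterone in null females, and neither X-zone marker was called for testosterone in WT females. With testosterone the summed X-zone signal was 0.09 to 0.12 in null females and 57.1 to 109 in WT females. The part of these cells in the Kcnd2 result was not tested. The calcium-sensing Kv4 partners Kcnip1, Kcnip3 and Kcnip4 were not called.

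Among WT sham arrays 5 channel genes were lower and none higher in females, beside 1.57% of all features higher and 1.04% lower (2.61% either way). Among null sham arrays 2 were lower, beside 0.493% higher and 0.523% lower (1.02% either way). With slide as a block the counts in either direction were 9 among WT and 4 among null sham arrays. The share of all features called with that block is not given here, so these counts have no array-wide rate beside them. In the main fit the 5 genes lower in WT sham females were Kcnf1, Kcnj4, Kcnmb4, Kcnj8 and Kcnj10. The 2 lower in null sham females were Kcnf1 and Kcnj4. Kcnf1 had to differ in both counts because of the detection rule, so it adds no support to either. Kcnj8, the Kir6.1 pore of ATP-sensitive channels best known in vascular smooth muscle, read -1.30, -0.76 and -0.96 in WT sham females and -0.14, 0.02 and -0.42 in WT sham males, without overlap (-0.83 ± 0.15, adjusted p = 0.00346). Its probe lies at chromosome 6, positions 142513487 to 142513546 (mm9, minus strand). That call held without any single array and without the 9 sex-discordant arrays (-1.12, adjusted p = 0.0287). In null sham arrays the sexes gave -0.10 ± 0.15 (adjusted p = 0.934). Of 8 mural cell markers only the pericyte gene Rgs5 was called, lower in WT sham females, and the summed signal of the 8 was 31.2 to 33.7 in WT sham females and 30.9 to 35.5 in WT sham males. The Kir6 regulatory subunit gene Abcc9 was not called.

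Kcnj10, the Kir4.1 channel known from glia and kidney, read -1.48, -1.41 and -1.60 in WT sham females and -0.61, -0.44 and -0.75 in WT sham males. The difference was -0.90 ± 0.22 (adjusted p = 0.0310), with no overlap. Its probe lies at chromosome 1, positions 174304062 to 174304121 (mm9, plus strand). The call ended without any 1 of its 6 arrays (0.0536 to 0.140). Leaving out the 9 sex-discordant arrays gave -0.88 (adjusted p = 0.178). The summed signal of 4 Schwann cell markers was 2.87 to 3.31 in WT sham females and 4.07 to 6.48 in WT sham males, and no glial marker was called between these groups. The part of these cells in the Kcnj10 result was not tested.

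**Figure D4:**
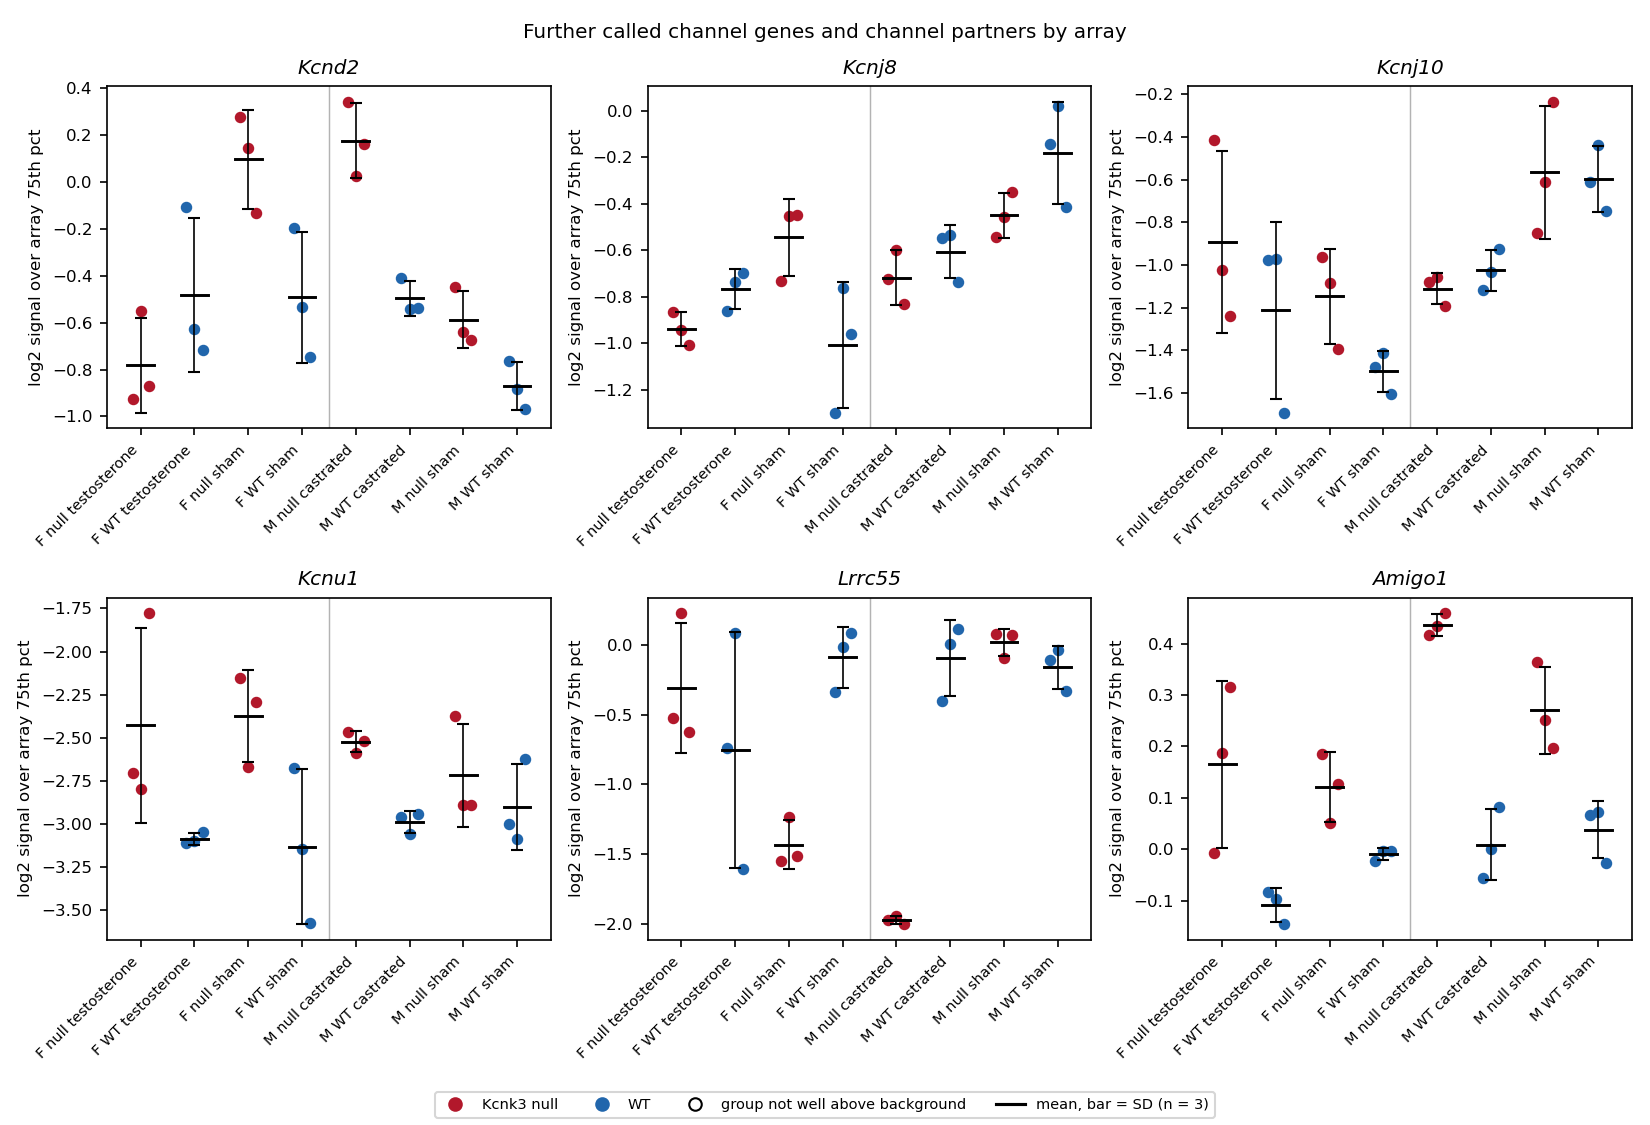
Level of 4 further called channel genes and of the partners Lrrc55 and Amigo1 on each array (y axis, log2 signal relative to the 75th percentile of the array) in the 8 groups by label; bars are mean ± SD of 3 arrays. Kcnd2 is high in null castrated males and null sham females, Kcnj8 and Kcnj10 are lower in WT sham females than WT sham males, and Lrrc55 is low in null castrated males and null sham females.

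The remaining families had no call, and in each the gene with the smallest unadjusted p over the 12 comparisons is given here, in that comparison and with its adjusted p. Kcnn2, the small-conductance calcium-activated channel SK2, read 5.03, 4.64 and 4.59 in WT castrated males and 3.94, 4.19 and 3.70 in WT sham males, without overlap (0.81 ± 0.20, adjusted p = 0.0803). Kcnt1, the sodium-activated channel Slack, read -0.80, -0.94 and -0.77 in null testosterone females and -1.79, -2.13 and -2.51 in null sham females, also without overlap (1.31 ± 0.28, adjusted p = 0.0669). Kcnab3, a Kv β subunit, read -0.68, -0.47 and -0.16 in WT sham females and 0.56, 0.43 and 0.45 in WT sham males, without overlap (-0.91 ± 0.26, adjusted p = 0.0707).

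Kcnh2, the ERG channel that repolarises heart and endocrine cells, gave 0.50 ± 0.16 for null against WT over all settings (adjusted p = 0.107). Kcnip1 gave -1.22 ± 0.48 for null against WT in testosterone females (adjusted p = 0.427). The channel regulator Kcnrg gave 0.83 ± 0.38 for the androgen dependence (adjusted p = 0.798), Kcne4 gave 0.74 ± 0.21 for it (adjusted p = 0.184), and Kcnq1ot1 gave 0.67 ± 0.22 for females against males among null sham arrays (adjusted p = 0.193).

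Kcnj5, the Kir3.4 gene mutated in human aldosterone-producing adenomas, is given for that role. It read -2.63, -3.60 and -3.97 in null castrated males and -2.47, -2.75 and -2.57 in WT castrated males, with overlap (-0.80 ± 0.35, adjusted p = 0.552). It was not called in any comparison, and the smallest adjusted p was 0.501. A missed call does not show that levels were equal: with a standard error of 0.35, the fit could not separate small shifts of this gene.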

How the data were processed

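Per the labels, RNA extraction used Qiagen reagents and Cy3 labelling followed Agilent's low-input amplification. The deposited scanner output gives spot intensities, including a processed signal that Feature Extraction had background-subtracted, per the file headers. The deposited matrix of the authors holds log2 values, found from the values to be quantile normalized (sorted columns within 0.0605); its background treatment is not given in the sources used here.

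The log2 of the 75th percentile of each array (426 to 1099 as signal) was subtracted from the log2 processed signal. Outlier spots were left out and spots of a probe averaged. Positions of probes refer to mm9, per the file headers; an mm9 gene annotation was not used here, so exon or UTR placement is not given. Differences were tested with limma 3.58.1 in R 4.3.3 as 8 group means (16 residual degrees of freedom), with Benjamini-Hochberg adjustment. The R package data.table (version 1.17.8) read the files. Plots used matplotlib 3.10.9, with pandas 2.3.3, numpy 2.4.6 and Python 3.11.15. The procedure was tested on simulated data. The number of arrays limits precision.

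The genes and marker lists were chosen with earlier results of these data known. Every gene called in a comparison is named, with the smallest p in each family without a call; Kcnj5 and single members were added for their role, and some genes are not reported here.

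Alternatives were normexp with quantile normalization, quantile normalization, the deposited table, no filter, a filter on all 24 arrays, slide and replicate blocks, RNA integrity, omission of slide 4 and of each array, and, chosen after seeing the data, omission of the 2 liver arrays and of 9 arrays whose sex-linked transcripts went against the label.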

Additional observations from a re-analysis of the deposited data

Results flagged for a closer look

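The null effect of Kcnq1 differed between low-androgen and high-androgen settings by 1.35 on the log2 scale (adjusted p = 0.0285, limma interaction). That call ended when any of 15 of the 24 arrays was left out (adjusted p = 0.0503 to 0.0645). It also ended without the slide that held both RNAs of the lowest integrity (adjusted p = 0.0886). The interaction could not be computed without the sex-discordant arrays. The null arrays were higher by 1.44 in sham females and 1.88 in castrated males, and by 0.33 in sham males and 0.29 in testosterone females.

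The null effect of the BK γ subunit gene Lrrc55 differed the other way, by -1.93 (adjusted p = 0.00341, limma interaction). This call held without any single array, but it too could not be computed without the sex-discordant arrays. Null minus WT was -1.35 in sham females and -1.88 in castrated males, and 0.18 in sham males and 0.45 in testosterone females. Null sham males, with a higher Kcnk3 signal than null castrated males, enter both the Kcnq1 and the Lrrc55 interaction. The part of that signal was not tested.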

How the results depend on the processing

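Counts of called channel genes kept their main value within 1.5 times in most settings. The share of all features called is not given for the other settings, so a changed count is not read as particular to these genes. For F WT testosterone against F WT sham the count was 1 (Kcnmb4), against 0, with normexp, quantile normalization, the filter on all 24 arrays, slide as a block, the replicate block and RNA integrity as a covariate. For F null testosterone against F null sham it was 2 with normexp, the deposited table and the filter on all 24 arrays, and 0 with quantile normalization, without a filter and without the liver arrays, against 1. With no filter it was 1 for F null against F WT sham and 2 for M null castrated against M null sham. The filter on all 24 arrays, which removes Kcnf1, gave 1 for M WT castrated against sham and 1 for F null against M null sham. With slide as a block it was 2 for M null castrated against M WT castrated, 2 for the androgen dependence, 9 for F WT against M WT sham and 4 for F null against M null sham. RNA integrity gave 2 for M null castrated against M WT castrated. Without slide 4 it was 0 for F null against F WT sham, 1 over all settings and 0 for the androgen dependence. Without the liver arrays the androgen dependence gave 2. Without the 9 sex-discordant arrays it was 0 for F null against F WT sham, M null castrated against M WT castrated and M null castrated against M null sham, and 1 for F null against M null sham; testosterone in WT females, null against WT in testosterone females, the mean over settings and the androgen dependence could not be computed.

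Leaving out 1 array at a time gave 1 to 5 over all settings, 0 to 3 for the androgen dependence, 1 to 2 for M WT castration, 2 to 2 for M null castration, 3 to 5 for F WT against M WT sham, 1 to 3 for F null against M null sham, 1 to 1 for M null castrated against M WT castrated, 0 to 3 for F null against F WT sham, 0 to 1 for F null testosterone, and 0 to 0 for the other 3.

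The replicate block gave 7 over all settings, 2 for M null castrated against M WT castrated, 2 for the androgen dependence and 1 for F WT testosterone. Over 84 pairs of arrays with the same number, the mean correlation of their deviations was 0.231 and the lowest -0.399, against a mean of -0.111 for arrays of different number. For 19 of 24 arrays the mean correlation with arrays of other groups was highest for those of their own number. This is a hint of pairing; the labels state none and not every pair passed 0.1, so the block is given as an alternative. The number is also the slide, except on the 2 arrays of slide 4. No call of a named gene reversed. Of 562 values for called genes and partners across settings, 451 kept their call and 111 lost it. The 15 genes with a group wholly below background have only bounds there.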

Other observations

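Kcnh6, an ERG-family channel gene chosen here after its values were seen, was well above background on 3 arrays only. It read -2.25 and -2.01 on null sham male arrays 1 and 2 and -2.18 on null castrated male array 1, and at most -5.85 on the other 21 arrays. All 3 arrays are among the 9 sex-discordant arrays. Kcnh6 was not called in any comparison.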
